A study of Mus musculus with 35 samples.

Results

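Resident memory CD8 T cells of the lung were compared with effector memory CD8 T cells of the blood on 12 of the 35 arrays of the series. The 6 lung arrays were those titled as CD8+ Trm of lung, and the 6 blood arrays those titled as CD8+ Tem of peripheral blood, and every gene with a usable probe entered. The mice were healthy wild type C57BL/6 females aged 8 to 16 weeks, with no infection or treatment named. Lung Trm came from dissociated lungs by a Percoll gradient and magnetic positive selection, first on CD8b and next on CD103, which is the integrin alpha E chain. The same mice gave blood, and Tem were its CD8b-positive cells after a further magnetic depletion step. Liver Trm (5 arrays) and intestine Trm (6 arrays), which were selected as lung Trm was, entered the same fit. Whole lung and whole blood mononuclear cells (PBMC), 3 arrays each, were not sorted and served here to show which genes are bright in the organ or in blood. Selection by magnetic beads enriches cells and does not prove a resident position, and neither donor history nor antigen specificity is given. The labels do not tie arrays to animals, and the p-values therefore reflect the variation among arrays, part of which may be technical.

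Resident memory T cells stay in a tissue after an immune response and do not recirculate. They are known for holding low levels of the receptors that lead T cells back to blood and lymph, such as the sphingosine 1-phosphate receptors, and for carrying CD69 and CD103. Effector memory cells of the blood patrol the circulation and are known for granzymes, the fractalkine receptor and, in part, the inhibitory receptor KLRG1. The lung is rich in epithelial cells that make surfactant and in alveolar macrophages, so a preparation of lung T cells can carry their RNA. In bulk arrays a lower share of cells with a transcript and less transcript per cell cannot be told apart.

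All values are levels on a scale of log2 intensity, scaled so that the arrays share one 75th percentile, or differences between such levels. Levels of different genes are not compared, since probes differ. Between 24.7% and 34.1% of probes were well above background on the lung Trm arrays and between 25.6% and 35.5% on the Tem arrays. Rank correlations across probes ran from 0.896 to 0.936 within lung Trm and from 0.818 to 0.937 within Tem, and probes are not independent replicates. Tem 2 stood apart from the other Tem arrays in many T cell genes, and results that rest on it are given without it.

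The sort genes did not differ between the populations by the test. Cd8a, the CD8 alpha chain, ran from 15.27 to 16.38 in lung Trm (median 16.05) and from 15.80 to 16.66 in Tem (median 16.18). The ranges overlapped, and the difference was -0.24 ± 0.36 (SE; adjusted p = 0.786, limma). Cd8b1, the CD8 beta chain used for selection, lay at medians of 15.76 and 15.74 (-0.26 ± 0.33, adjusted p = 0.744), with lung Trm 5 lowest at 14.23. Cd3e, a chain of the T cell receptor complex, differed by -0.14 ± 0.22 (adjusted p = 0.797). Of 25 tested genes of T cell identity and receptor signalling, none was called, under any leave-out of 1 array, and 1 separated the groups, lower on every lung array, without passing the test. Their summed level ran from 20.07 to 20.66 in lung Trm and from 20.48 to 20.70 in Tem. All 25 were dim in whole lung, with a median of 4.47 above it in lung Trm. Itgae, which encodes CD103, had no probe matched to its name, so the second selection step could not be checked.

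Genes of other T cell subsets were measured in both populations. Ccr7, the receptor that guides naive and central memory T cells into lymph nodes, was well above background on all 12 arrays, from 16.25 to 17.54 in lung Trm (median 17.16) and from 15.78 to 18.34 in Tem (median 17.48). The groups overlapped, with Tem 2 lowest, and Ccr7 differed by -0.21 ± 0.35 (adjusted p = 0.806). Cd4, the coreceptor of helper T cells, was above background on all 12 arrays too, from 11.05 to 16.26 in lung Trm and from 11.78 to 13.85 in Tem. Lung Trm 2 (16.26) and lung Trm 6 (15.54) lay above every Tem array, whereas the other lung arrays reached at most 12.93. Foxp3, the regulatory T cell factor, did not differ by the test (-0.72, adjusted p = 0.505), and none of 5 tested markers of CD4, regulatory and gamma-delta T cells was called.

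**Figure D1:**
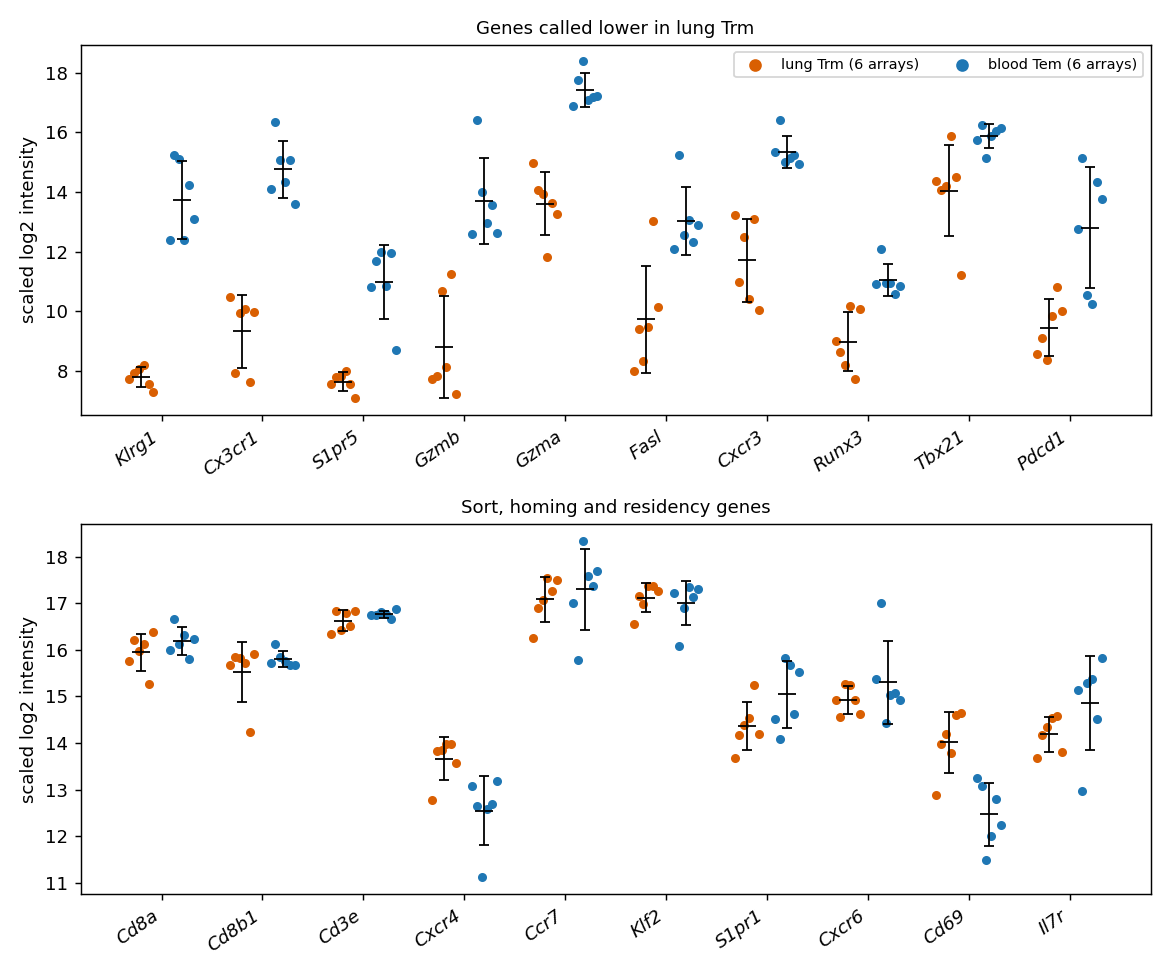
Scaled log2 intensity of 10 genes called lower in lung Trm (top) and of 10 sort, homing and residency genes (bottom), 1 point per array, with the mean and SD of 6 arrays per group. Klrg1, Cx3cr1 and Gzmb do not overlap between the groups, whereas Cd8a, Ccr7 and Klf2 do.

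Against blood Tem, 181 genes were higher in lung Trm (2.1% of 8615 tested) and 89 were lower (1.03%), at an adjusted p under 0.05 over all genes (3.13% in either direction). These are counts from limma fitted across all sorted arrays. The median difference of all genes was -0.10. At an unadjusted p under 0.05, 565 genes were higher and 739 lower. Of the called genes, 95 higher and 53 lower ones had groups that did not overlap, against 1.36% and 1.53% of all genes tested, and 223 had the same direction on all 6 slides. All 181 higher genes and 82 of the lower ones differed by at least 2-fold. In the dimmer group no array was well above background for 63 of the higher and 18 of the lower genes. For such genes the fold is given as a lower bound, which sets the brighter mean against the lowest signal counted as measured on each array of the dimmer group. Without lung Trm 2 the higher calls fell to 116, and the lower calls were 59 without lung Trm 2, 59 without lung Trm 5 and 53 without Tem 2.

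Receptors and adhesion molecules of circulating effector cells were lower in lung Trm. Klrg1, an inhibitory receptor of effector cells, ran from 7.28 to 8.18 in lung Trm (median 7.84) and from 12.38 to 15.23 in Tem (median 13.66). No lung array was well above background and all 6 Tem arrays were, which gives a level at least 13.9-fold lower (adjusted p = 3.37e-06). Cx3cr1, the fractalkine receptor, ran from 7.63 to 10.47 in lung Trm (median 9.94) and from 13.61 to 16.35 in Tem (median 14.70), without overlap (-5.43 ± 0.85, adjusted p = 0.000382). A further probe of Cx3cr1 gave -6.04 ± 0.69. S1pr5, a sphingosine 1-phosphate receptor of circulating effector cells, was measured on no lung array and on 5 Tem arrays, with medians of 7.68 and 11.25 (at least 2.06-fold lower, adjusted p = 0.000115). The integrin chains Itgb1 (beta 1; -1.42 ± 0.38, adjusted p = 0.0389) and Itga4 (alpha 4; -1.30 ± 0.34, adjusted p = 0.0327) together form VLA-4, which holds leukocytes to inflamed endothelium, and both separated the groups. The Itgb1 call ended when Tem 1, 2, 3 or 6 or lung Trm 2, 3, 5 or 6 was left out (highest adjusted p 0.0948). That of Itga4 ended when Tem 2, 3, 4 or 6 or lung Trm 1, 2, 5 or 6 was left out (highest adjusted p 0.0837).

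Other genes of exit and return did not pass the test. Of 26 tested circulation-associated genes, 6 were lower, 1 was higher and 19 were not called (median -0.61, against -0.10 for all genes). The share called was 26.9%, against 3.13% of all genes, and 3 were still lower when lung Trm 2, Tem 2 or Tem 6 was left out. S1pr1, the receptor that draws T cells out of tissue, lay at medians of 14.30 in lung Trm and 15.07 in Tem (-0.67 ± 0.40, adjusted p = 0.440). Klf2, the transcription factor that drives S1pr1, had medians of 17.20 and 17.17 (0.12 ± 0.26, adjusted p = 0.852). The single higher member, the adaptor gene Gab3, is uncertain. The probe used gave 3.45 ± 0.44 (adjusted p = 4.68e-05), and another gave -0.83 ± 0.32. Itgb7, the partner chain of CD103, did not differ (-0.16 ± 0.17, adjusted p = 0.710).

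Among 17 chemokine receptors and homing genes, 3 were lower and none higher (17.6% called, against 3.13% of all genes, median -0.62), and 5 were lower without lung Trm 5. Cxcr3, the receptor for interferon-induced chemokines, ran from 10.03 to 13.23 in lung Trm (median 11.73) and from 14.94 to 16.40 in Tem (median 15.18). The groups did not overlap (-3.64 ± 0.58, adjusted p = 0.000496), with Tem 2 highest. Cxcr6, a receptor that holds T cells in airway and liver, was not lower or higher by the test (-0.38 ± 0.42, adjusted p = 0.705), with medians of 14.92 and 15.04. Cxcr4, the receptor for CXCL12, was at 12.77 to 13.99 in lung Trm and 11.12 to 13.19 in Tem (1.12 ± 0.39, adjusted p = 0.144). In the fit of these 12 arrays alone Cxcr4 passed the test.

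Cytotoxic genes were lower in lung Trm. Gzmb, which encodes granzyme B, ran from 7.23 to 11.25 in lung Trm (median 7.99) and from 12.60 to 16.42 in Tem (median 13.27). It was well above background on 2 lung arrays and on all 6 Tem arrays (-4.89 ± 0.91, adjusted p = 0.00281). Gzma, granzyme A, was measured on all 12 arrays, from 11.83 to 14.98 and from 16.87 to 18.38 (-3.80 ± 0.57, adjusted p = 0.000267). Neither granzyme overlapped between the groups. Fasl, whose product triggers death through FAS, overlapped because lung Trm 5 lay at 13.03 against a lung median of 9.44 and Tem values of 12.09 to 15.25 (-3.30 ± 0.73, adjusted p = 0.0113). Gzmm, granzyme M, was the fourth called member (-2.74). Prf1, perforin, separated the groups at 10.12 to 11.40 against 11.43 to 13.68 without passing the test (-1.33 ± 0.39, adjusted p = 0.0616). In all, 4 of 14 tested cytotoxic genes were lower and none higher (28.6% called, against 3.13% of all genes, median -1.01). With each array left out in turn, 4 or 5 were called. Their summed level did not overlap, at 18.53 to 18.94 in lung Trm and 19.27 to 20.00 in Tem.

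Of 11 effector cytokines and chemokines, Ccl5 was lower. Ccl5, a chemokine stored by memory CD8 T cells, ran from 14.61 to 16.94 in lung Trm and from 17.38 to 18.50 in Tem (-2.01 ± 0.32, adjusted p = 0.000552). Ifng, interferon gamma, was at 7.87 to 10.96 in lung Trm and 9.98 to 15.22 in Tem, and did not pass (-2.83 ± 0.91, adjusted p = 0.103). Further genes among the 10 lower ones with the largest differences were Phf11a (at least 3.88-fold lower, adjusted p = 4.1e-05), Zbtb32, a transcription factor of lymphocytes (at least 4.98-fold lower, adjusted p = 0.000204), and Casp1, the protease that matures interleukin 1 beta (-3.48 ± 0.68, adjusted p = 0.00436). Lrrc19 was called as well (-3.56 ± 0.95, adjusted p = 0.0384), but the call ended in 8 of 12 leave-outs, of Tem 1, 2, 3, 4 or 5 or lung Trm 1, 2 or 3 (highest adjusted p 0.105). Tem 2 was the highest Tem array in Gzmb, Fasl, Cxcr3, Casp1, Phf11a and Zbtb32. Each of these 6 was still called without it.

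Of 18 transcription factors of effector and memory cells, 2 were lower, 1 was higher and 15 were not called (16.7% called, against 3.13% of all genes, median -0.39). Runx3, a factor of the CD8 lineage and of residency, ran from 7.72 to 10.19 in lung Trm (median 8.82) and from 10.56 to 12.08 in Tem (median 10.92), without overlap (-2.07 ± 0.45, adjusted p = 0.00945). Tbx21, which encodes T-bet, ran from 11.22 to 15.89 and from 15.15 to 16.24, and overlapped (-1.83 ± 0.48, adjusted p = 0.0364). Its call ended when Tem 1, 2, 4, 5 or 6 or lung Trm 1, 2 or 3 was left out (highest adjusted p 0.0779). Eomes, the relative of T-bet, was not called (-2.12 ± 0.74, adjusted p = 0.140). Another Eomes probe gave -2.21 ± 0.50, and the mean of its probes passed the test. Prdm1, which encodes Blimp-1, and Ahr, the aryl hydrocarbon receptor, both tied to residency, did not differ from Tem by the test (-1.15 ± 0.69, adjusted p = 0.443; -0.21 ± 0.59, adjusted p = 0.888). Prdm1 was well above background on none of the lung arrays. Id3, an inhibitor of E proteins found in memory precursors, was higher (2.22 ± 0.60, adjusted p = 0.0425), a call that ended when Tem 1, 2, 4 or 6 or lung Trm 1, 2, 3 or 4 was left out (highest adjusted p 0.116).

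Genes named for residency were mostly not called. Of 32 tested, 2 were higher, 1 was lower and 29 were not called (median 0.04). The share called was 9.38%, against 3.13% of all genes. Cd69, which retains T cells in tissue by pulling S1PR1 off the surface, ran from 12.88 to 14.64 in lung Trm (median 14.09) and from 11.49 to 13.25 in Tem (median 12.52). Lung Trm 1 lay within the Tem range (1.54 ± 0.41, adjusted p = 0.0363). The call ended when Tem 3, 4 or 6 or lung Trm 2, 3, 5 or 6 was left out, and with the slide as a block (highest adjusted p 0.0857). Nr4a1, an orphan nuclear receptor induced by receptor signals, was the other higher member (2.49 ± 0.46, adjusted p = 0.00237) and also counts among the immediate early genes. The lower member was Runx3. Naive and central memory genes lay close to Tem, with a median of -0.01 and 1 of 25 called higher, Id3 (4%, against 3.13% of all genes called). Il7r, the interleukin 7 receptor, did not differ by the test (-0.67 ± 0.44, adjusted p = 0.490).

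Receptors for inhibitory signals and for cytokines held a few lower members. Pdcd1, which encodes PD-1, ran from 8.36 to 10.82 in lung Trm and from 10.25 to 15.15 in Tem (-3.35 ± 0.86, adjusted p = 0.0306). The Pdcd1 call ended when Tem 1, 2, 5 or 6 or lung Trm 1, 2 or 3 was left out (highest adjusted p 0.0822). It was the called member of 16 checkpoint and costimulatory receptors (median -0.40). Il12rb1, a chain of the interleukin 12 receptor (-2.19 ± 0.57, adjusted p = 0.0343), and Il2rb, the chain shared by the receptors for interleukins 2 and 15 (-1.21 ± 0.29, adjusted p = 0.0211), were the called members of 19 cytokine receptors and suppressors (median -0.22). Both calls ended without Tem 2. Il12rb1 also lost it without Tem 1 or 5 or lung Trm 1, 3, 4 or 5 (highest adjusted p 0.0950), and Il2rb without lung Trm 2 or 3 (highest adjusted p 0.0657). In the TGF-beta pathway, which induces CD103, Smad3 was lower (-1.68 ± 0.37, adjusted p = 0.0104) and the other 10 tested members were not called (median 0.03). The Smad3 call ended under quantile normalization and with the deposited values (highest adjusted p 0.0657).

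The NK-type lectin receptors went in both directions. Klrg1 and Klra8, an activating receptor of NK cells (at least 2.05-fold lower, adjusted p = 0.00112), were lower. Klrb1c, known as NK1.1, was lower on a probe measured on 3 Tem arrays and no lung array (at least 1.19-fold, adjusted p = 0.0285). The probe passed the filter through these 3 arrays alone and dropped out of the test when any of them was left out. The Klrb1c call ended when lung Trm 1, 2, 3 or 4 was left out (highest adjusted p 0.0633), and also without the filter on dim probes. Klra1 was higher, at 10.52 to 12.67 in lung Trm against 5.97 to 10.56 in Tem (2.89 ± 0.69, adjusted p = 0.0206), a call lost when lung Trm 1, 3 or 5 was left out (highest adjusted p 0.0525). Genes of this family are close copies, and a probe can share signal between them. Of 25 listed receptors 6 passed the filter on dim probes, and 20 of 23 with a probe were well above background on none of the lung arrays.

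**Figure D2:**
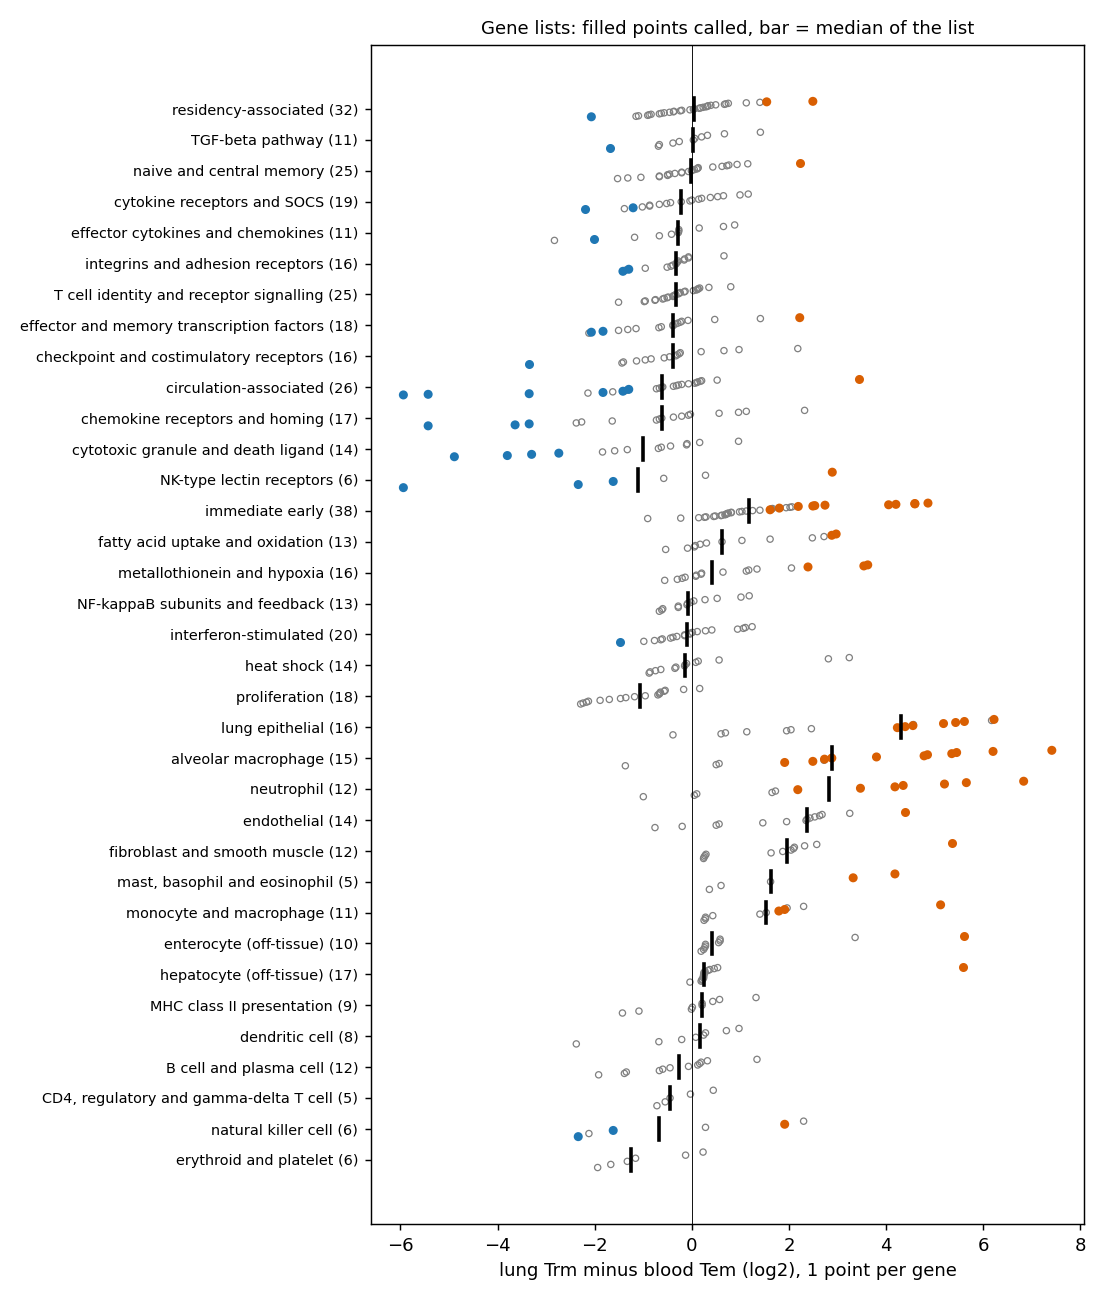
Fitted log2 difference, lung Trm minus blood Tem, for each tested gene of 35 lists, with the number of genes in brackets. Filled points are called genes (orange higher, blue lower), open points are not called, and the bar is the median of the list, from -1.25 for erythroid and platelet genes to 4.31 for lung epithelial genes.

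Immediate early genes, which are transcribed within minutes of a signal, were higher in lung Trm. Lung Trm were prepared from dissociated tissue and Tem from blood, so preparation and population cannot be told apart for these genes. Of 38 tested, 11 were called higher and none lower (28.9% called, against 3.13% of all genes), 36 had a positive difference, and the median was 1.19. With each array left out in turn, 10 to 13 were called. The 250 bases upstream of the first listed transcription start are given for 4 called members. They come from RefSeq promoters of GRCm38.p6 and are printed 5′ to 3′ along the gene, with matched motifs in capitals. These 4 were chosen because that window held a match. In the same window Jun, Nr4a1, Klf4, Gadd45g and Sgk1 held none.
Dusp1, chr17:26508473-26508722, minus strand: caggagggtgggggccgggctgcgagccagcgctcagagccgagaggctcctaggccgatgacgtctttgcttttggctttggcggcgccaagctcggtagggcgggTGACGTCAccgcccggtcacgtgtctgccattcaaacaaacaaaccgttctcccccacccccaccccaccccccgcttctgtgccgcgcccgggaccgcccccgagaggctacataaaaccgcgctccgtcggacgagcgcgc
Fos, chr12:85473640-85473889, plus strand: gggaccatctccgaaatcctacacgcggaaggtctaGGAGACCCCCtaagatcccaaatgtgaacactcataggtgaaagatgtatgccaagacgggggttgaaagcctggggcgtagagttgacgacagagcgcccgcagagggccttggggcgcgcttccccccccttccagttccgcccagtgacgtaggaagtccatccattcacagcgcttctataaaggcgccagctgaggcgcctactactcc
Fosb, chr7:19310046-19310295, minus strand: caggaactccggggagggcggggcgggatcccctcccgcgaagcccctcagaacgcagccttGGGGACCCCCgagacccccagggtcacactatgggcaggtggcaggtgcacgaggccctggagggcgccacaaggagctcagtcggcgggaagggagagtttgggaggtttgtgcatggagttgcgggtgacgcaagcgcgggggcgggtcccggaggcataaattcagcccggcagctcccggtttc
Egr2, chr10:67535249-67535498, plus strand: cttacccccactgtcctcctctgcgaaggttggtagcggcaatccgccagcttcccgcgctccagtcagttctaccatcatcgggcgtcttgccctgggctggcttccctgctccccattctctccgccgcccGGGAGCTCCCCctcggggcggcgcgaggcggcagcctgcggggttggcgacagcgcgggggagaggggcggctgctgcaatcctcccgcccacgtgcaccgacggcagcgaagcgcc
The capitals mark a cAMP response element in Dusp1 and matches to the NF-kappaB motif in Fos, Fosb and Egr2, where 2 matches overlap. The cAMP response element was searched as TGACGTCA and the AP-1 site as TGANTCA, and the CArG box, bound by serum response factor, and the NF-kappaB motif by their usual degenerate forms, all on both strands of 300 bases (250 before and 50 after the start). Of 32851 promoters in the table, 1.79% held the cAMP response element, 7.81% the AP-1 site, 1.63% the CArG box and 8.46% the NF-kappaB motif. These shares are per promoter, whereas a gene counted when any of its listed starts held the motif. Of the 9 called immediate early genes with a promoter in the table, Dusp1 held the first, none held the second, Egr2 held the CArG box at other listed starts, and Fos, Fosb, Egr2 and Nr4a1 held the NF-kappaB motif. Among 23 not called, 3 held the cAMP response element, 2 the AP-1 site, 1 the CArG box and 3 the NF-kappaB motif. Among the 5 lower circulation-associated genes with a promoter none of the 4 motifs was matched. A match is a string of letters and no evidence of binding.

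Klf4, a Krüppel-like factor that restrains T cell division, ran from 12.39 to 14.06 in lung Trm (median 12.73) and from 7.14 to 8.63 in Tem (median 8.16). It was measured on all lung arrays and on no Tem array (at least 9.27-fold higher, adjusted p = 6.15e-06). Egr2, a zinc finger factor induced by receptor signals, showed the same split, with medians of 12.03 and 7.86 (at least 5.2-fold higher, adjusted p = 5.83e-05). Fosb, a subunit of AP-1, ran from 13.87 to 15.75 in lung Trm and from 8.69 to 13.35 in Tem, where Tem 2 was far above the Tem median of 9.64 (4.59 ± 0.67, adjusted p = 0.000204). Fos, its close relative (4.05), Gadd45g, a growth arrest gene (4.20), Egr1 (2.74), Myc (2.53), the phosphatase gene Dusp1 (2.19), the kinase gene Sgk1 (1.80) and Jun (1.61) were called too. The lowest difference of the list was -0.91, for Rgs1, a regulator of G protein signalling, and it was not called.

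Other stress genes were mostly not called. None of 14 heat shock genes and none of 13 genes of NF-kappaB subunits and feedback was called (medians -0.15 and -0.09), and 2 heat shock genes were called higher without lung Trm 6. Of 16 metallothionein and hypoxia genes, 3 were higher (18.8% called, against 3.13% of all genes, median 0.42). Ddit4, a stress-induced inhibitor of mTOR, ran from 13.80 to 15.30 in lung Trm and from 11.49 to 13.27 in Tem, without overlap (2.39 ± 0.47, adjusted p = 0.00467). The metal-binding Mt1 (3.54 ± 0.79, adjusted p = 0.0116) and Mt2 (3.62 ± 0.90, adjusted p = 0.0254) overlapped, with lung Trm 3 lowest at 10.03 and 8.41. The Mt2 call ended when Tem 1, 4, 5 or 6 or lung Trm 1, 2, 4 or 5 was left out, and with the slide as a block (highest adjusted p 0.0625). No proliferation gene of 18 was called, though 17 were below Tem (median -1.07). Without lung Trm 2 or lung Trm 6, 2 were lower, and without Tem 3 or Tem 4, 1. Gbp3, a guanylate-binding protein, was the called one of 20 interferon-stimulated genes (-1.48 ± 0.32, adjusted p = 0.00855; list median -0.10), and lost the call under quantile normalization and with the deposited values (highest adjusted p 0.138).

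Replication-dependent histone genes, which supply histones while DNA is copied, stood out among the higher genes and were grouped after their values were seen, so no test was made of the group. Of 28 tested, 12 were higher and none lower (42.9% higher, against 2.1% of all genes), and 12 or 13 were called as each array was left out. In whole lung 24 of the 28 were dim, and 11 of the 12. H1f1, a linker histone, ran from 11.96 to 13.13 in lung Trm (median 12.42) and from 9.60 to 10.30 in Tem (median 9.77), without overlap (2.60 ± 0.30, adjusted p = 1.59e-05). H2ac6, a core histone, differed by 3.03 ± 0.43 (adjusted p = 0.000144) and H4c12 by 1.37 ± 0.25 (adjusted p = 0.00209). The remaining 16 were not called, and 8 of the 28, most of them H2A genes, lay below Tem (lowest -0.81 for H2ac22). Copies of these genes are nearly identical, and probes may share signal between them. The median of the 28 was 1.20 against Tem, 0.24 against liver Trm and -0.48 against intestine Trm, values that share the lung arrays.

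**Figure D3:**
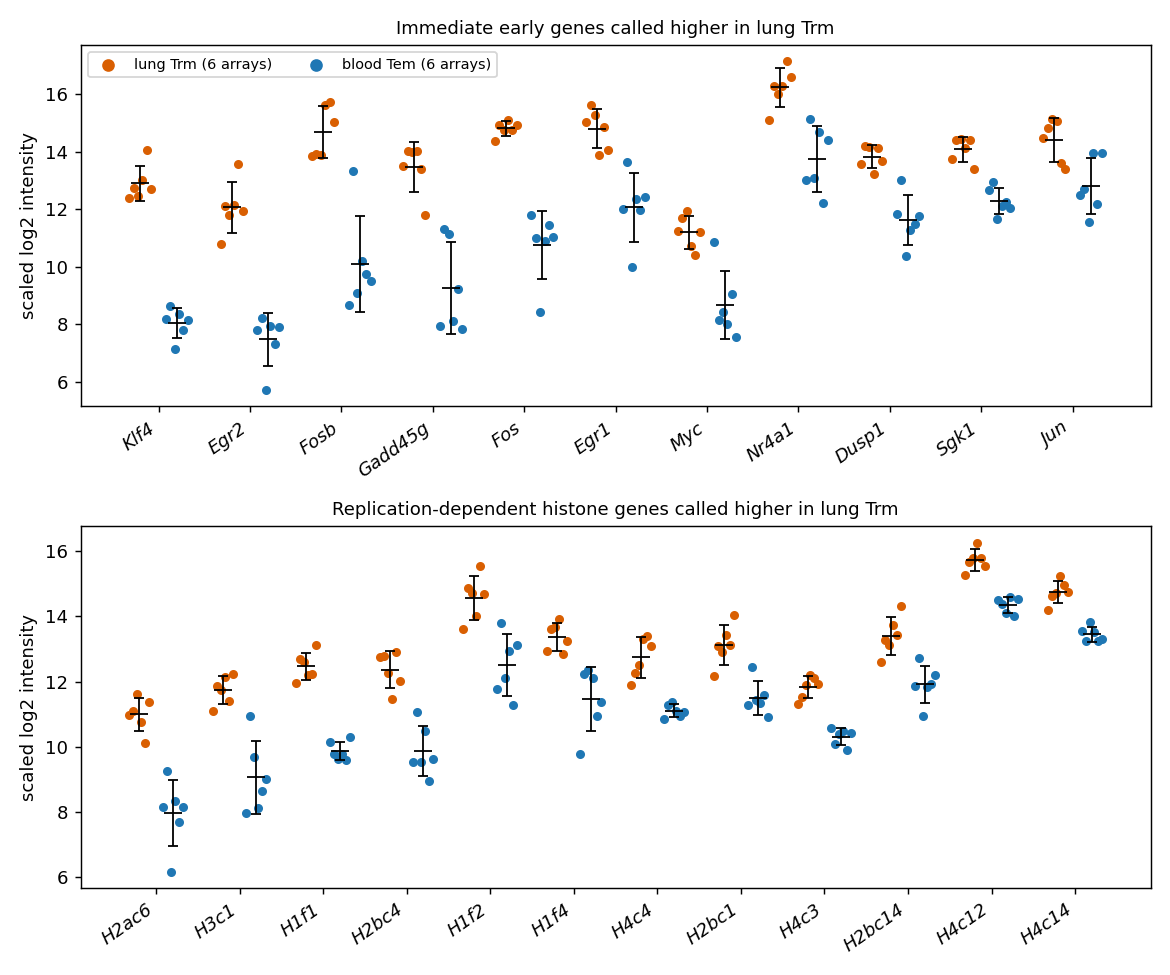
Scaled log2 intensity on each array of the 11 immediate early genes (top) and the 12 replication-dependent histone genes (bottom) called higher in lung Trm, with the mean and SD of 6 arrays per group. Klf4, Egr2 and H1f1 do not overlap between the groups, and Tem 2 is the Tem array nearest to lung Trm for Fosb, at 13.35.

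Most of the 10 genes with the largest positive differences among those measured on every lung array were markers of alveolar macrophages, lung epithelium or neutrophils. Chil3, a chitinase-like protein made by alveolar macrophages, ran from 13.28 to 17.53 in lung Trm (median 16.22) and from 5.84 to 11.87 in Tem (median 7.98), without overlap (7.41 ± 0.75, adjusted p = 3.69e-06). Of 15 tested alveolar macrophage markers 11 were higher and none lower (median 2.88), against 2.1% higher among all genes. As each array was left out, 9 to 11 were called. Of the 22 with a probe, 7 did not pass the filter and 13 were well above background on no Tem array. Tested markers that no Tem array measured passed the filter through resident cells alone. The filter thus favours higher calls in this list and in the marker lists below, and the counts only describe the tested members. The ribonuclease genes Ear2 (6.20 ± 0.64, adjusted p = 3.92e-06), Ear10 (5.45 ± 0.67, adjusted p = 4.1e-05) and Ear1 (at least 6.57-fold higher, adjusted p = 0.000204) rose with it, as did Rnase2a (5.01 ± 0.86, adjusted p = 0.00113). These are close copies of one another. Marco, a scavenger receptor, was higher by 3.80 and Siglecf, a lectin of alveolar macrophages and eosinophils, by at least 2.31-fold (adjusted p = 0.00424). Lung Trm 3 was the lowest array for Chil3, Ear1, Ear2, Ear10 and Siglecf, and its summed macrophage level of 15.17 lay within the Tem range of 14.39 to 15.24. On the other 5 lung arrays that sum ran from 16.97 to 19.36, highest on lung Trm 4. 

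Surfactant and airway genes followed another order of arrays. Sftpc, the surfactant protein C of alveolar type 2 cells, had a median of 17.04 in lung Trm and 10.21 in Tem, but lung Trm 6, at 10.72, lay beside the highest Tem array at 10.69 (6.22 ± 0.90, adjusted p = 0.000184). Sftpd (5.18 ± 0.89, adjusted p = 0.00115), Sftpa1 (at least 11.8-fold higher, adjusted p = 0.0033), the lysozyme gene Lyz1 (5.61 ± 0.64, adjusted p = 1.39e-05) and Cbr2, an airway carbonyl reductase (at least 20.7-fold higher on the probe used, adjusted p = 0.0116), were higher too. Another probe gave smaller differences for Cbr2 (3.92 ± 1.06) and Sftpd (3.99 ± 0.92). Cbr2 and Sftpa1 were within the Tem range on lung Trm 6. Of 16 tested epithelial markers 7 were higher and none lower (median 4.31), and 6 to 10 as each array was left out. Of the 26 with a probe, 10 did not pass the filter and 14 were well above background on no Tem array. Their summed level fell between 17.54 and 20.41 on lung Trm 1 to 5, was 15.46 on lung Trm 6, and ran from 14.82 to 15.64 in Tem. Scgb1a1, the main club cell secretory protein, had a difference of 6.17 without passing the test. Nkx2-1, Epcam, Krt8, Slc34a2, Cldn18, Muc1 and Scgb3a1 were well above background on none of the lung arrays.

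Of 12 tested neutrophil markers 7 were higher and none lower (median 2.83), with summed levels of 17.87 to 18.76 in lung Trm and 17.42 to 17.98 in Tem. Of the 19 with a probe, 7 did not pass the filter and 9 were well above background on no Tem array. S100a9, a calcium-binding protein of neutrophils and monocytes, ran from 14.12 to 16.73 in lung Trm (median 16.02) and from 5.66 to 14.52 in Tem (median 7.77), and overlapped through Tem 2 (6.83 ± 1.06, adjusted p = 0.000369). S100a8, its partner, showed the same pattern (5.65 ± 0.90, adjusted p = 0.000454). Neither differed from liver Trm by the test (0.50, adjusted p = 0.759 for S100a9, and 0.97, adjusted p = 0.447 for S100a8). Il1b, interleukin 1 beta, was measured on all lung arrays and on no Tem array (at least 12.3-fold higher, adjusted p = 0.000204). Hdc, which makes histamine, was higher by 4.18 ± 0.62 (adjusted p = 0.000245). Mmp9, Ltf, Ngp, Mpo, Cxcr1, G0s2 and Padi4 were well above background on none of the lung arrays. Sparc, a matrix protein of fibroblasts and endothelium, was at least 21.1-fold higher on the probe used (adjusted p = 0.00281), whereas another probe gave a smaller difference of 2.98 ± 1.14. Sparc did not differ from liver or intestine Trm by the test (-0.25, adjusted p = 0.877, and -0.18, adjusted p = 0.930). The other 11 fibroblast and smooth muscle markers were not called (median 1.96), with Col1a1, Col3a1, Dcn and 9 more above background on none of the lung arrays. Egfl7, an endothelial growth factor, was the called one of 14 endothelial markers (4.38 ± 1.04, adjusted p = 0.0199; list median 2.36) and lost the call when lung Trm 1 or 2 was left out (highest adjusted p 0.0546). Without lung Trm 1 or 2 no endothelial marker was called, and without lung Trm 4 or 6 there were 2. Pecam1, Tek and Emcn were above background on none of the lung arrays.

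Some monocyte genes and some genes of fatty acid handling were higher with them. Cd63, a tetraspanin of lysosomes (at least 6.94-fold higher, adjusted p = 0.00189), Tyrobp, the signalling adaptor DAP12 (1.91 ± 0.47, adjusted p = 0.0238), and Lyz2, the myeloid lysozyme (at least 1.73-fold higher, adjusted p = 0.0343), were the called members of 11 monocyte and macrophage markers (median 1.53). The Tyrobp call ended when Tem 3 or lung Trm 1, 2 or 4 was left out (highest adjusted p 0.0584), and that of Lyz2 when Tem 1, 3, 5 or 6 or lung Trm 1, 2 or 4 was (highest adjusted p 0.0942). C1qa, C1qb, C1qc, Msr1 and Spi1 were above background on none of the lung arrays. Fabp5, a fatty acid binding protein (2.97 ± 0.64, adjusted p = 0.00964), and Lpl, lipoprotein lipase (at least 1.82-fold higher, adjusted p = 0.00406), were the 2 called of 13 genes of fatty acid uptake and oxidation (median 0.62). Both lay at whole lung levels or below (differences from whole lung -0.07 and -0.38). Lung Trm 3 was lowest for both, as it was for the macrophage sum, and the part of macrophage RNA in these genes was not tested. Trf, transferrin, rose by 5.59 ± 0.70 (adjusted p = 4.1e-05), or by 3.90 ± 0.71 on another probe, and was lowest on lung Trm 3.

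**Figure D4:**
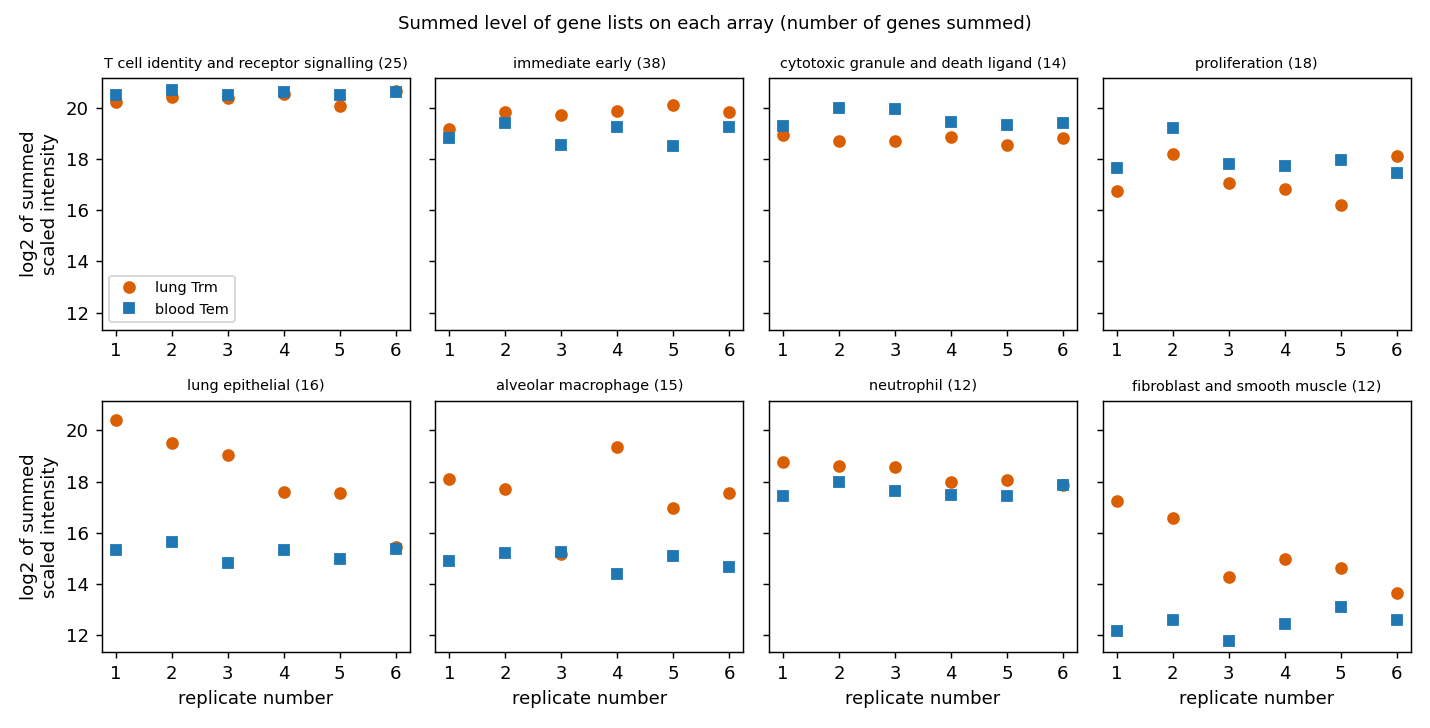
Log2 of the summed scaled intensity of the tested members of 8 lists on each lung Trm array (circles) and blood Tem array (squares), by replicate number, with the number of genes summed in brackets. Lung Trm 6 falls to the Tem level for epithelial markers and lung Trm 3 for macrophage markers, whereas T cell genes lie between 20.07 and 20.70 on all 12 arrays.

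The summed levels of immediate early genes and of markers of lung cells are set side by side here for each lung array, and their relation was not tested. The summed immediate early level was highest on lung Trm 5 (20.09), where the epithelial sum was 17.54 and the macrophage sum 16.97, and lowest on lung Trm 1 (19.17), where the epithelial sum was at its highest (20.41). On lung Trm 6, with the lowest epithelial sum, it was 19.83, and on lung Trm 3, with the lowest macrophage sum, 19.71. On lung Trm 2 it was 19.84, and on lung Trm 4, with the highest macrophage sum, 19.89. The neutrophil sum was 18.05 on lung Trm 5, 18.76 on lung Trm 1, 17.87 on lung Trm 6 and 18.59 on lung Trm 3. In Tem the summed immediate early level ran from 18.51 to 19.42, with the highest value on Tem 2. The sum takes in all 38 tested immediate early genes, of which 27 were not called, so it need not follow the called ones. Which cells of the preparation held that RNA was not tested.

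Setting each gene beside whole lung divided the 181 higher genes. A gene was called bright in whole lung when it was well above background on all 3 whole lung arrays and at or above its lung Trm level, and dim when it was measured on no whole lung array or was at least 1 log2 unit above whole lung in lung Trm. By this rule 77 (42.5%) were bright, 39 (21.5%) lay between and 65 (35.9%) were dim, against 39.2%, 30.4% and 30.4% of all genes tested. The share of bright genes was thus close to that of all genes. Of the 77 bright ones, 54 were called higher in whole lung than in whole PBMC, with a median of 3.83. Among all bright genes tested it was 1633 of 3379, with a median of 1.58. The 77 had been chosen as above Tem, which are blood cells, and at or below whole lung. A larger share over whole PBMC was therefore set in part by the choice, and nothing is read from it. Of all 10628 genes, 30.1% were higher in whole lung than in whole PBMC and 1.93% lower. Whole PBMC 1 was a weak array, with 7.8% of probes well above background against 24.8% and 22.2% on the others. Without it, 48 of the 77 bright genes, 1 of the 39 between and 2 of the 65 dim ones were higher in whole lung than in whole PBMC, against 54, 5 and 7 with it. Of the 65 dim ones, 58 were called higher in lung Trm than in whole lung and 32 were measured on no whole lung array. The class uses the same difference, and among all genes tested 1668 of 2616 dim ones were so called, so nothing is read from that count. Of all 10628 genes 15.9% were higher in lung Trm than in whole lung and 25.5% lower (41.5% in all). Whole lung arrays lay on slides of their own, so slide and group cannot be told apart there. Scaling changed the class of few genes, with 171 of 181 keeping it under quantile normalization and with the deposited values, and 174 when all probes set the scale.

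In the bright class were Cbr2, Sftpc, Lyz1, Trf, Sftpa1, Sparc and, among genes that T cells also use, Klf4. Sftpc stood at 18.00, 18.10 and 17.66 on the 3 whole lung arrays, against a lung Trm median of 17.12 on that scale (difference -1.69, adjusted p = 0.154). Klf4 stood at 13.63, 13.38 and 13.97 there and at 12.56 to 13.89 in lung Trm (difference -0.68, adjusted p = 0.441), and the class does not say which cells of the preparation held its RNA. Chil3 and Ear2 lay between, at 0.95 and 0.88 above whole lung (adjusted p = 0.415 and 0.496).

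The dim class held T cell, immediate early, histone and myeloid genes. Fosb was 7.30 above whole lung (adjusted p = 1.13e-08), where it stood at 7.44, 7.29 and 7.68 and was measured on no array. Egr2 was 4.07 above (adjusted p = 5.02e-06), Nr4a1 3.84 above (adjusted p = 5.58e-04) and Cd69 6.76 above (adjusted p = 8.15e-11). S100a8 (3.95, adjusted p = 8.06e-03) and Il1b (4.27, adjusted p = 7.44e-04) were dim as well, and both were brighter in whole PBMC than in whole lung (differences of whole lung from whole PBMC -3.59 and -4.06), so the class holds genes of blood myeloid cells too. Rnase2a, Ear1 and Ear10 also fell in the dim class while being alveolar macrophage or eosinophil genes. Akap7, an anchor of protein kinase A, was at 11.98 to 14.30 in lung Trm and 8.05 to 10.74 in Tem (4.62 ± 0.63, adjusted p = 8.94e-05), and 2.15 above whole lung.

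**Figure D5:**
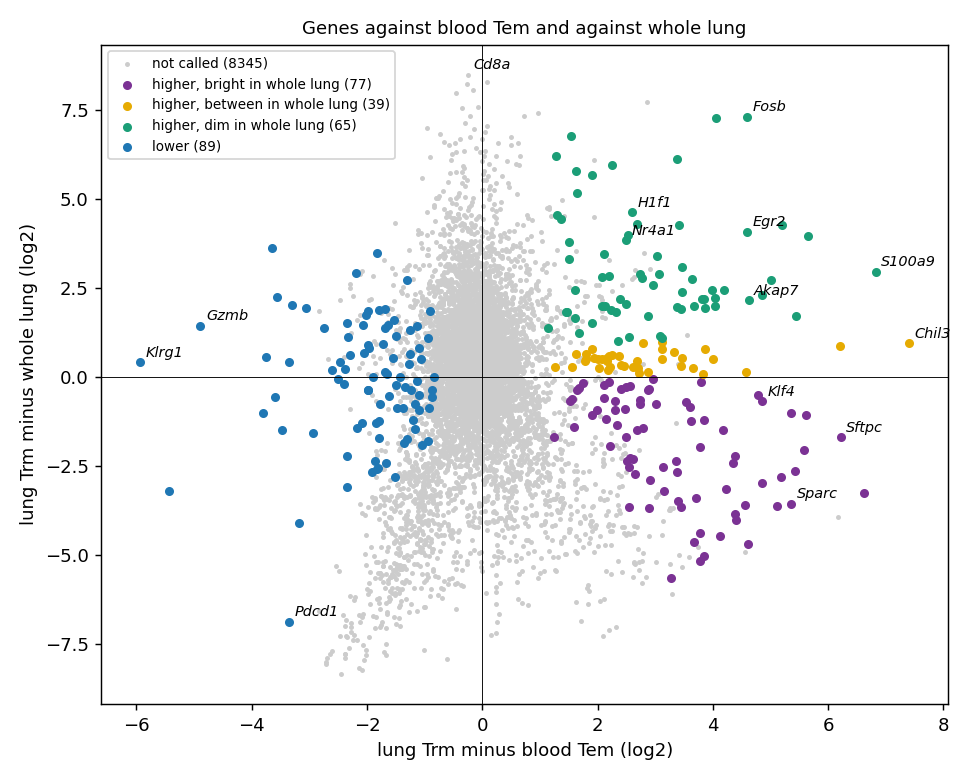
Log2 difference of lung Trm from blood Tem (horizontal) against that from whole lung (vertical) for 8615 genes, with called genes coloured by their class in whole lung. Fosb, Egr2 and S100a9 lie above whole lung, whereas Sftpc and Sparc lie below it. The 2 axes share the lung Trm arrays.

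Some genes that were lower than in Tem were bright in whole lung. Pdcd1 stood at 16.20, 16.35 and 16.65 on the whole lung arrays and at 8.52 to 10.65 in lung Trm (difference -6.87, adjusted p = 6.06e-07), and Tbx21 at 16.63, 16.63 and 16.81 against 11.27 to 16.00 (difference -2.57, adjusted p = 1.28e-04). Both probes read higher on whole PBMC 1, the weak array, than on the other PBMC arrays (17.73 for Pdcd1 and 17.97 for Tbx21). Whether their signal in whole samples is specific was not tested. Of the 89 lower genes, 37 (41.6%) were bright, 15 (16.9%) lay between and 37 (41.6%) were dim, against 39.2%, 30.4% and 30.4% of all genes tested. The bright share was thus near that of all genes. Cxcr3, Gzmb, Fasl and Klrg1 were measured on no whole lung array.

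Against the other resident populations, lung Trm was set within the same fit, and these comparisons share the lung arrays. They called 1529 genes against liver Trm (17.7%, with 9.26% higher and 8.49% lower in lung Trm) and 817 against intestine Trm (9.48%, with 4.25% higher and 5.24% lower). Klrg1 and Cx3cr1 did not differ from liver Trm by the test (-1.07, adjusted p = 0.188, and 0.08, adjusted p = 0.952). Granzymes were lower in lung than in intestine Trm, with Gzmb at -6.52 (adjusted p = 5.69e-05) and Gzma at -4.01 (adjusted p = 7.08e-05). Ahr (-4.04, adjusted p = 8.84e-05), Prdm1 (-3.14, adjusted p = 4.73e-03) and Casp1 (-4.53, adjusted p = 1.37e-04) were also lower than in intestine Trm. Tbx21 and Pdcd1 were lower in lung Trm than in either population, by 2.38 and 2.83 against liver and by 2.05 and 3.23 against intestine. Chil3 was higher than in both (6.51 and 7.69). Fosb, Egr2, Nr4a1 and Akap7 differed from neither by the test, and Klf4 was higher than in liver Trm (2.36, adjusted p = 8.54e-03).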

How the data were processed

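The 35 samples are 1-colour arrays on 9 slides. Per the file headers, the authors' scanner files hold intensity values made with Feature Extraction 11.0.1.1 (the submitters' processing notes name 10.7 and Partek), with the background already corrected. The authors also deposited a table of log2 values, which matched quantile-normalized scanner intensities. Here log2 intensity minus the 75th percentile of each array was fitted with limma 3.58.1 (R 4.3.3) over the 23 sorted arrays, or over all 35 for whole lung. A gene was the probe with the highest mean, and a gene entered if at least 3 arrays of 1 group measured it well above background. The 75th percentile was taken over probes well above background on all arrays of the fit, 4041 for the sorted arrays and 1341 for all. Calls used Benjamini-Hochberg adjusted p-values under 0.05 over all genes tested. Of 39429 probes, 27502 carried a gene name. The number of arrays limits the precision.

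Named genes were the 10 largest called differences in each direction among genes measured throughout the brighter group, the 8 largest dim and 5 largest bright ones among higher genes, up to 3 called members of each of 35 lists, and a set of T cell genes, of which some are not reported here. The count of immediate early and histone genes shown goes beyond this rule, as do single list members given for their role. Members and lists were chosen with earlier results of these data known. The procedure was tested on simulated data. Same-numbered lung Trm and Tem arrays shared a slide, and the correlation of their deviations ran from -0.186 to 0.187, so the numbers were not taken as pairs.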

Additional observations from a re-analysis of the deposited data

Results flagged for a closer look

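Single arrays stood apart within their group of 6 for 28 of the 148 sets of values of the named genes, by a gap that chance exceeds in about 1 of 20 sets. Of these, 14 were Tem 2, 7 were Tem 3 and 6 were lung arrays. Tem 2 was the highest Tem array for Gzmb (16.42), Cxcr3 (16.40), Cxcr6 (17.01), Fasl (15.25), Il12rb1 (14.68), Prf1 (13.68), Fosb (13.35), Prdm1 (13.28), Itgb1 (12.97), S100a8 (12.55), Runx3 (12.08), Hdc (11.32) and Cd8b1 (16.13). It was the lowest for Klf2 (16.09). Tem 3 was the lowest for Sftpc (7.96), Sftpd (6.83), Cbr2 (5.68), Egr2 (5.72), Cd63 (5.62), Egfl7 (5.82) and Cxcr4 (11.12), of which Cxcr4 was the one measured on all 6 Tem arrays. Tem 6 was the lowest for S1pr5 (8.69). In lung Trm, array 6 was the lowest for Sftpc (10.72) and Cbr2 (7.16), array 3 for Mt2 (8.41), array 5 for Cd8b1 (14.23) and array 1 for Cxcr4 (12.77), and array 4 was the highest for Casp1 (11.25).

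Tested within the same fit, 19 named genes differed between lung and liver Trm. Lung cell and myeloid genes were higher in lung Trm, with differences of 6.51 for Chil3, 5.73 for Ear2, 4.82 for Sftpc, 4.50 for Ear10, 4.12 for Sftpa1, 4.10 for Rnase2a and for Lyz1, 3.64 for Ear1, 3.23 for Sftpd, 2.99 for Cd63, 2.73 for Il1b, 2.36 for Klf4 and 1.98 for Siglecf. Trf (-3.19), Pdcd1 (-2.83), Tbx21 (-2.38), Klra8 (-1.60), Il2rb (-1.14) and Ccl5 (-1.08) were lower than in liver Trm.

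Between lung and intestine Trm 32 named genes differed. Higher in lung Trm were Chil3 (7.69), Ear2 (6.35), S100a9 (6.29), S100a8 (5.67), Sftpc (5.29), Ear10 (5.15), Cbr2 (4.90), Sftpa1 (4.73), Ear1 (4.27), Sftpd (4.23), Rnase2a (3.95), Siglecf (2.64), Lpl (2.17), Tyrobp (1.63) and Cxcr4 (1.41). Lower in lung Trm were Gzmb (-6.52), Casp1 (-4.53), Fasl (-4.33), Ahr (-4.04), Gzma (-4.01), Ifng (-3.69), Cxcr3 (-3.39), Pdcd1 (-3.23), Prdm1 (-3.14), Il12rb1 (-2.81), Lyz1 (-2.23), Ccl5 (-2.11), Tbx21 (-2.05), Klrg1 (-2.02), Gbp3 (-1.94), Runx3 (-1.42) and Il2rb (-1.11).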

How the results depend on the processing

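The counts of genes higher and lower than in Tem were 180 and 60 under quantile normalization (75% higher, against 67%), 178 and 60 with the deposited values, 134 and 92 with normexp, 160 and 73 with the slide as a replicate block and 240 and 75 in a fit of these 12 arrays alone. With no filter on dim probes 49 were lower, and with the stricter filter 115 were higher. Leaving out 1 array gave 116 to 203 higher and 53 to 114 lower genes, and, of genes higher in lung Trm than in whole lung, 1086 to 1955. Without both liver Trm 3 and Tem 3, an alternative added after the data were seen, they were 145 and 63. In 1707 recomputed values of named genes, 147 lost the call, 2 gained it and 1558 stayed on the same side of the threshold. No gene changed sign where it was called in either fit. Some called in neither fit changed sign, such as Cd4 (0.44, and -0.16 at the lowest leave-out) and Ahr (-0.21, and 0.18 at the highest leave-out). The 2 gained calls were Cxcr4 (fit of the 12 arrays) and Eomes (mean of probes). The slide block ended the calls of Cd69, Il12rb1, Il2rb, Itga4, Klrb1c, Mt2 and Tbx21. Quantile normalization and the deposited values each ended those of Gbp3, Id3, Il12rb1, Itgb1, Lrrc19, Pdcd1 and Smad3. Leaving out whole PBMC 1 was added likewise. Probes never well above background were 0.24 higher in lung Trm, which limits what dim probes show, and signal over background limits the folds given as bounds.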

Other observations

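Markers of other immune cells were mostly not called, where 3.13% of all genes tested were. None of 8 dendritic cell, 12 B and plasma cell, 9 MHC class II and 6 erythroid and platelet markers was called (medians 0.16, -0.26, 0.21 and -1.25), and Ms4a1 and Cd79a, which mark B cells, were well above background on none of the lung arrays. Of 5 tested mast cell, basophil and eosinophil markers 2 were higher (median 1.62), while Cpa3, Mcpt4, Tpsb2, Epx and Fcer1a were above background on none of the lung arrays. Of 6 natural killer cell markers 1 was higher and 2 were lower (median -0.67).

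Genes of other organs served as a check. Of 17 tested hepatocyte genes 1 was higher, Trf (median 0.25), and of 10 enterocyte genes 1, Lyz1 (median 0.42). Both were bright in whole lung. Alb, which encodes albumin, was well above background on none of the lung arrays.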
